A study of Mus musculus with 24 samples.

Results

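The genes described here encode the core of the mammalian microRNA pathway: the Argonautes Ago1, Ago2, Ago3 and Ago4, the nucleases Drosha and Dicer1, the Drosha partner Dgcr8, and the scaffold proteins Tnrc6a, Tnrc6b and Tnrc6c. These 10 genes were chosen by name, by their known function, with earlier results of these data known. They were matched to the probes of a mouse kidney array through the platform annotation. A probe was found for 8 of the 10, out of 19505 named genes on the array, and each of the 8 had 1 probe. Dgcr8 and Tnrc6b were not analysed here. Kidney RNA came from male C57BL/6N mice aged 10 weeks, with acute kidney injury or a sham procedure, each with or without inhibition of the microRNA miR-22. All animals, sham animals included, received an oligonucleotide under the skin at 20 mg/kg, had water withheld for 23 h, and were given the analgesic carprofen at 5 mg/kg. Injury was caused by 50% glycerol injected into the calf muscle 24 h after the oligonucleotide, which breaks down muscle and releases heme proteins that harm the renal tubule (rhabdomyolysis), and kidneys were taken 24 h later. Which of the mild and severe glycerol doses in the protocol applied is not stated. The groups were 5 sham arrays with mock, 5 sham arrays with anti-miR-22, 7 glycerol arrays with mock and 7 glycerol arrays with anti-miR-22.

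In the canonical pathway Drosha, held by Dgcr8, cuts the hairpin out of a primary transcript in the nucleus, and Dicer1 trims it to a short duplex in the cytoplasm. An Argonaute keeps a single strand of the duplex and is guided by it to messenger RNAs, where a TNRC6 protein (also called GW182) bridges it to poly(A)-binding protein and to deadenylases. Ago2 is the mammalian Argonaute best known for cutting its target, and an antisense oligonucleotide of the kind used here occupies the microRNA inside the Argonaute.

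The sequences show how the oligonucleotides relate to miR-22, and other transcripts were not searched for pairing. The level of miR-22 was not analysed here. Its inhibition and other effects of the oligonucleotide sequences therefore cannot be told apart in the comparisons of anti-miR-22 with mock. Mature miR-22 lies at chr11:75463772-75463793 (GRCm38.p6, plus strand), within the span of the non-coding gene Mir22hg, which was not analysed here. The miRNA is given from RefSeq with its seed, bases 2 to 8, in capitals. For anti-miR-22 the capitals are the bases opposite that seed, and for the mock they are the 4 bases changed from anti-miR-22.
mmu-miR-22-3p: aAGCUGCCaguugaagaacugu
anti-miR-22: cttcaactGGCAGCT
mock: ctAcTacAggcTgct
Anti-miR-22 is 15 bases long and is fully complementary to bases 2 to 16 of the 22-base miRNA. Of the mock's changes, counted from 1 at the 5′ end with the anti-miR-22 base given before the position, A12T lies opposite the seed, while T3A, A5T and T8A lie outside it.

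All values are the deposited log2 expression values, so a difference of 1 is a doubling on that scale. Array medians lay between 5.75 and 5.86. The labels do not state that each array was a separate animal, so the p-values rest on the spread among these samples alone. Tests came from limma, a linear model with a moderated spread, fitted over 22205 probes, and "called" means a limma adjusted p below 0.05. The sham mock 1 array stood apart before any member was considered. Its value for Havcr1, the kidney injury molecule of damaged tubules, was 14.6, between the other sham mock arrays (7.00 to 7.74) and the glycerol arrays (17.9 to 19.1). Called results of the members and their pairs that rest on it are given with and without it. The list and marker counts, and the differences of listed genes, include it. The tissue label was checked against its markers: the summed level of 10 proximal tubule genes was 20.40 to 20.61 in sham mock arrays, and none of them had a group mean below the arrays' lower quartile in any group.

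**Figure D1:**
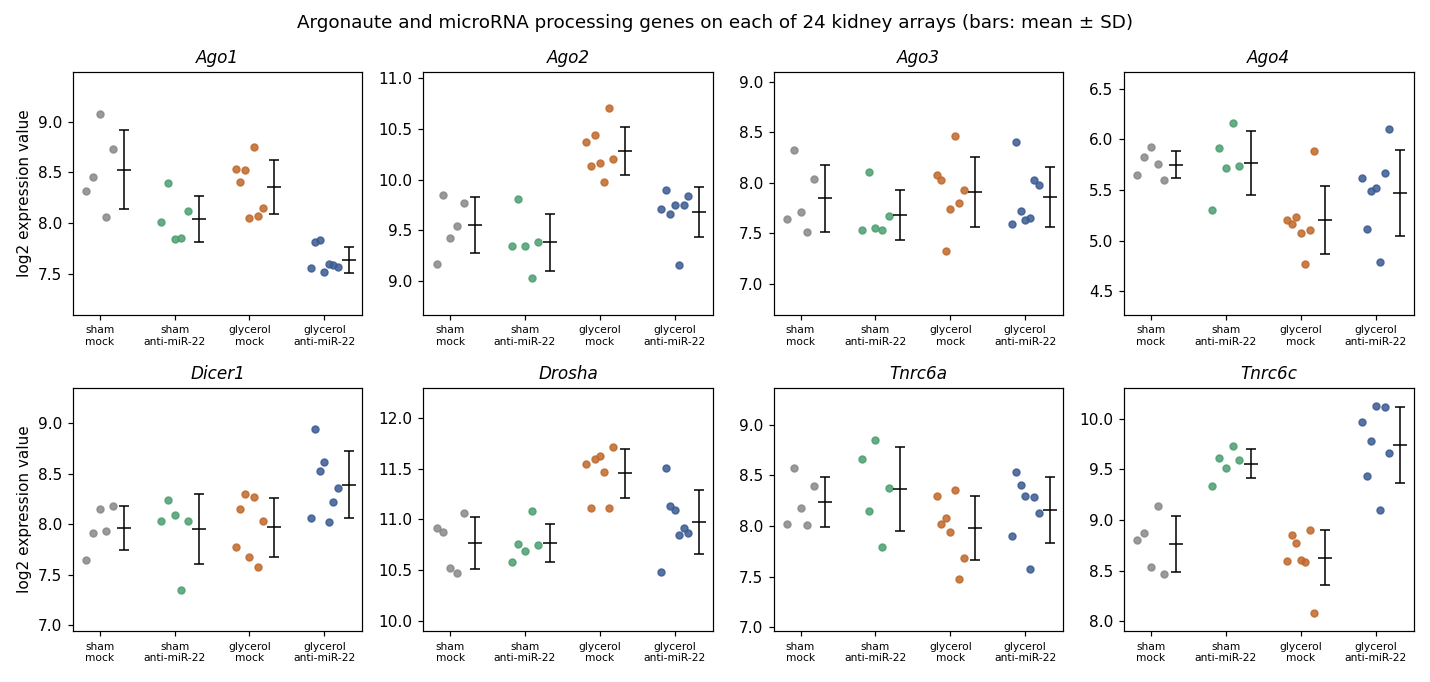
Each panel plots the log2 expression value (y axis, 2.4 log2 units tall in every panel) of a member on the 24 arrays by group (x axis), with mean ± SD as bars beside the points. Tnrc6c sits higher with anti-miR-22 in both settings without overlap, Ago1 and Ago2 sit lower with anti-miR-22 after glycerol, and Ago2 and Drosha sit highest in the glycerol mock group.

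Glycerol injury with the mock oligonucleotide was the comparison that asks how the machinery responds to injury when miR-22 is not targeted. Ago2 and Drosha were higher and Ago4 was lower after glycerol, while Dicer1, Ago1, Ago3, Tnrc6a and Tnrc6c were not called. That is 3 of 8 members called, 2 higher and 1 lower, against 34.4% of all probes called (18% higher, 16.4% lower), so the share of members called was close to that of the array as a whole. The median size of the members' differences was 0.22, against 0.27 for all probes.

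Drosha, the nuclease that starts processing, had log2 values of 10.91, 10.87, 10.52, 10.47 and 11.06 in sham mock arrays 1 to 5. In the glycerol mock group its lowest value was 11.11, its median 11.54 and its highest 11.72. All 7 glycerol arrays were above all 5 sham arrays. The difference was 0.69 ± 0.16 (SE), a 1.61-fold rise, with a limma adjusted p of 0.00071, and without sham mock 1 it was 0.72 (limma adjusted p 0.00109). Dicer1, which makes the next cut, had means of 7.96 ± 0.22 (SD, n = 5) and 7.97 ± 0.29 (SD, n = 7). Its difference was 0.0034, with a 95% interval of -0.35 to 0.36.

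Ago2 had values of 9.16, 9.84, 9.42, 9.54 and 9.77 in sham mock arrays 1 to 5. After glycerol with mock the lowest value was 9.97, the median 10.21 and the highest 10.70. The groups did not overlap. Ago2 rose by 0.74 ± 0.15 (SE), or 1.66-fold, with a limma adjusted p of 0.000288, and by 0.64 without sham mock 1 (limma adjusted p 0.00223). Ago2 and Drosha were the 2 members whose groups did not overlap in this comparison, against 21.2% of all probes.

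Ago4, an Argonaute that does not slice its targets in mammals, moved the other way. Its sham mock values were 5.65, 5.83, 5.92, 5.76 and 5.60, and after glycerol its lowest, median and highest values were 4.77, 5.16 and 5.88. The groups overlapped through glycerol mock 7, which held the highest value. Ago4 fell by 0.55 ± 0.19 (SE), a 1.46-fold change, with a limma adjusted p of 0.0208. These values are near or below the array medians, no detection call was used, and the call held without sham mock 1 (-0.57, limma adjusted p 0.0282) but was lost without sham mock 3 (-0.50, limma adjusted p 0.0531) or without glycerol mock 5 (-0.47, limma adjusted p 0.0518).

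The remaining Argonautes and the TNRC6 scaffolds were not called with mock. Ago1 differed by -0.17 (95% interval -0.49 to 0.15) and Ago3 by 0.06 (-0.30 to 0.42). Tnrc6a differed by -0.26 (-0.64 to 0.12) and Tnrc6c by -0.13 (-0.48 to 0.21). These intervals hold changes as large as some of those called, so they do not show that the genes stayed level.

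Injury also changed what the kidney sample held. All 10 proximal tubule genes and all 8 genes of the thick limb and distal tubule were lower with both oligonucleotides. With both, all 5 stroma genes were higher, and 4 of 6 macrophage genes were higher and 1 lower. With mock, 4 of 7 collecting duct genes were lower, and of 5 endothelial genes 2 were higher and 3 lower. With anti-miR-22, 5 of 7 collecting duct genes were lower, and of 5 endothelial genes 1 was higher and 3 lower. Neutrophil genes were higher in 3 of 5 with both oligonucleotides. Of 6 T and B cell genes 2 were lower with mock and 0 with anti-miR-22. Of 4 podocyte genes 1 was higher and 1 lower with mock, and 0 and 1 with anti-miR-22. Of all probes, 34.4% were called with mock and 37.4% with anti-miR-22. The summed proximal tubule level went from 20.40 to 20.61 in sham mock arrays to 18.40 to 19.29 in glycerol mock arrays, and the summed stroma level from 12.11 to 12.69 to 13.95 to 14.32. The summed macrophage level was 9.11 to 10.12 and then 10.32 to 11.28. The part of these shifts in the members' differences was not tested, and in whole-kidney RNA fewer cells of a type and less RNA per cell cannot be told apart.

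The same injury comparison in animals given anti-miR-22 called Ago1 lower and Dicer1 higher, 2 of 8 members against 37.4% of all probes (19.8% higher, 17.6% lower). Ago2 and Drosha, both called with mock, were not called here. Their differences were 0.30 (95% interval -0.02 to 0.62, limma adjusted p 0.14) and 0.21 (-0.11 to 0.53, limma adjusted p 0.337). Whether the injury effect differs between oligonucleotides is the interaction tested further on.

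Ago1 had values of 8.01, 8.40, 7.84, 7.85 and 8.11 in sham anti-miR-22 arrays 1 to 5. Its lowest, median and highest values after glycerol with anti-miR-22 were 7.51, 7.59 and 7.83. The groups did not overlap, though by a narrow margin, and Ago1 was the 1 such member against 23.8% of all probes. Ago1 fell by 0.41 ± 0.16 (SE), a 1.32-fold change, with a limma adjusted p of 0.04. The call was lost when sham anti-miR-22 1, 2 or 5 or glycerol anti-miR-22 1, 4, 5, 6 or 7 was left out (limma adjusted p 0.0579 to 0.144), and also when arrays were centred on their medians (0.0622).

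Dicer1 had values of 8.04, 8.24, 8.09, 7.35 and 8.03 in sham anti-miR-22 arrays 1 to 5. After glycerol with anti-miR-22 its lowest value was 8.02, its median 8.36 and its highest 8.94. Sham anti-miR-22 array 4 lay below all the others and the remaining sham arrays lay at the low end of the glycerol range. Dicer1 rose by 0.44 ± 0.17 (SE), or 1.36-fold, with a limma adjusted p of 0.0438. Without sham anti-miR-22 4 the difference was 0.29 (limma adjusted p 0.205), and the call was also lost without sham anti-miR-22 1 or 5 or glycerol anti-miR-22 2, 3, 4 or 7 (limma adjusted p 0.0557 to 0.108).

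Ago3, Ago4, Tnrc6a and Tnrc6c were not called after glycerol with anti-miR-22. Their differences were 0.18, -0.30, -0.20 and 0.19 on the log2 scale.

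**Figure D2:**
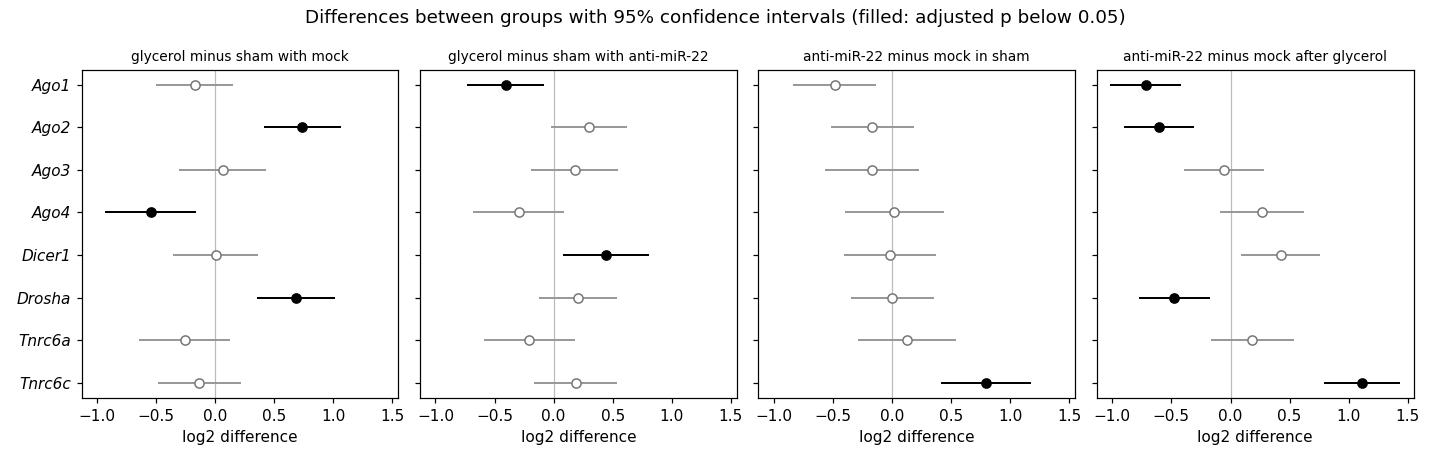
Each panel plots the log2 difference of the 8 members in a comparison (x axis) with its 95% interval, and filled points mark an adjusted p below 0.05. Tnrc6c lies to the right in both comparisons of anti-miR-22 with mock (0.79 and 1.11). Ago1, Ago2 and Drosha lie to the left in the comparison of anti-miR-22 with mock after glycerol.

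Anti-miR-22 against mock in sham kidneys, sham mock 1 with its high Havcr1 included, asked what the inhibitor does without glycerol. Tnrc6c was higher, and it was the 1 member of 8 called, against 7.16% of all probes (3.85% higher, 3.31% lower). Tnrc6c encodes a scaffold that Argonautes recruit to silence targets. Its sham mock values were 8.80, 8.87, 8.53, 9.14 and 8.46, and its sham anti-miR-22 values were 9.33, 9.61, 9.51, 9.73 and 9.59. Every anti-miR-22 array was above every mock array, and Tnrc6c was the 1 member without overlap, against 8.27% of all probes. The rise was 0.79 ± 0.18 (SE), or 1.73-fold, with a limma adjusted p of 0.00443, and it was 0.80 without sham mock 1 (limma adjusted p 0.00971).

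Tnrc6a, its family member on the array, differed by 0.13 in sham kidneys, with a 95% interval of -0.28 to 0.54. Ago1 differed by -0.49 ± 0.17 (SE) and was not called (limma adjusted p 0.0819). Its mock arrays held 8.31, 8.45, 9.07, 8.06 and 8.73, so the groups overlapped, and Ago1 was called without sham mock 4 (-0.60, limma adjusted p 0.0282) or without sham anti-miR-22 2 (-0.57, limma adjusted p 0.0452), but not without sham mock 1 (-0.54, limma adjusted p 0.0754). Drosha, Dicer1 and Ago4 had differences of 0.0024, -0.01 and 0.02, with intervals of -0.34 to 0.35, -0.40 to 0.37 and -0.39 to 0.43. Ago2 and Ago3 both differed by -0.17 and were not called.

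After glycerol the inhibitor's comparison called 4 of 8 members, 1 higher and 3 lower, against 19.6% of all probes (9.48% higher, 10.2% lower). Tnrc6c was higher, and Ago1, Ago2 and Drosha were lower with anti-miR-22. The median size of the members' differences was 0.45, against 0.19 for all probes. The members' mean levels lay between percentiles 47 and 88 of all probes, so the all-probe figure also includes dimmer probes. Tnrc6c, Ago1 and Ago2 were the 3 members whose groups did not overlap, against 7.37% of all probes.

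Tnrc6c in the glycerol mock group had a lowest value of 8.08, a median of 8.60 and a highest value of 8.90. With anti-miR-22 after glycerol these were 9.10, 9.78 and 10.13. The lowest array with the inhibitor lay above the highest with mock. Tnrc6c rose by 1.11 ± 0.15 (SE), or 2.16-fold, with a limma adjusted p of 1.92e-06, the widest shift of any member in any comparison here. Tnrc6a differed by 0.18 (95% interval -0.16 to 0.53).

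Among the Argonautes, Ago1 had a lowest, median and highest value of 8.05, 8.40 and 8.75 with mock after glycerol, against 7.51, 7.59 and 7.83 with anti-miR-22. The groups were fully separate. Ago1 fell by 0.72 ± 0.14 (SE), a 1.64-fold change, with a limma adjusted p of 0.000329.

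Ago2 with mock after glycerol ran from 9.97 to 10.70, as given above, and with anti-miR-22 its lowest, median and highest values were 9.15, 9.75 and 9.90. All 7 arrays with the inhibitor were below all 7 with mock. Ago2 fell by 0.60 ± 0.14 (SE), a 1.52-fold change, with a limma adjusted p of 0.00203. The mean after glycerol with anti-miR-22 was 9.68 ± 0.25 (SD, n = 7). The sham means were 9.38 ± 0.28 (SD, n = 5) with anti-miR-22 and 9.55 ± 0.27 (SD, n = 5) with mock.

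Ago3 and Ago4 were not called after glycerol, at -0.05 (95% interval -0.38 to 0.28) and 0.27 (-0.08 to 0.61). Ago3, Ago1 and Ago4 are neighbouring protein-coding genes on chromosome 4 in GRCm38.p6, between Tekt2 and Clspn, whereas Ago2 is on chromosome 15. Of these 3 neighbours, only Ago1 was called in this comparison.

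Drosha had a lowest, median and highest value of 11.11, 11.54 and 11.72 with mock after glycerol, and of 10.48, 10.92 and 11.51 with anti-miR-22. The groups overlapped at their edges. Drosha fell by 0.48 ± 0.14 (SE), a 1.39-fold change, with a limma adjusted p of 0.0157. Dicer1 lay on the other side, at 0.42 ± 0.16 (SE), and was not called (limma adjusted p 0.0575). Single changes to the data or the fit took Dicer1 past the threshold: leaving out sham anti-miR-22 4, glycerol mock 3 or 5, or glycerol anti-miR-22 1 or 5 gave limma adjusted p values of 0.033 to 0.0406.

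Cell type markers also differed between the oligonucleotides. After glycerol, 3 of 5 endothelial genes and 4 of 10 proximal tubule genes were lower with anti-miR-22, and 1 proximal tubule gene was higher. Of 6 macrophage genes 2 were lower, and of 5 neutrophil genes 2 were higher. Collecting duct genes were higher in 2 of 7, and 1 of 8 thick limb and distal tubule genes was lower. Of 5 stroma genes 1 was higher and 1 lower. Of all probes, 19.6% were called in that comparison. The summed endothelial level was 13.50 to 13.81 with mock and 13.23 to 13.43 with anti-miR-22, which do not overlap, and the summed proximal tubule level was 18.40 to 19.29 and 18.27 to 18.96. In sham kidneys 2 of 5 endothelial genes were lower with the inhibitor, and 0 of 10 proximal tubule genes were called by limma (1 at an unadjusted p below 0.05). There 1 of 7 collecting duct genes was higher, and of 8 thick limb and distal tubule genes 1 was higher and 1 lower. The share of all probes called was 7.16%. The part of these markers in the members' differences was not tested.

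The design also asks whether the inhibitor's effect differed between injured and sham kidneys. No member was called for that difference, 0 of 8 in limma against 0.383% of all probes, and 1 member had an unadjusted p below 0.05. That member was Drosha, at -0.48 ± 0.22 (SE), with a limma adjusted p of 0.366. Ago2 had -0.44 (95% interval -0.88 to 0.01), Dicer1 0.44 (-0.06 to 0.94), and Tnrc6c 0.32 (-0.17 to 0.80). Ago1, Ago2 and Drosha were called lower with the inhibitor after glycerol and not in sham kidneys, and this test does not show that the inhibitor's effect on them differed between the settings. The same numbers give the difference between the injury effects under the 2 oligonucleotides.

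Averaged over sham and glycerol, the inhibitor's effect called 3 of 8 members against 19.5% of all probes (9.24% higher, 10.2% lower). Tnrc6c was higher by 0.95 ± 0.12 (SE), or 1.94-fold, with a limma adjusted p of 2.85e-07. Ago1 was lower, at -0.60 ± 0.11 (SE) or 1.52-fold (limma adjusted p 0.000112), and so was Ago2, at -0.39 ± 0.11 (SE) or 1.31-fold (limma adjusted p 0.0105). Drosha, at -0.24, was not called for the mean (limma adjusted p 0.148). Without sham mock 1 the means were 0.96 for Tnrc6c, -0.63 for Ago1 and -0.43 for Ago2 (limma adjusted p 9.23e-07, 0.000129 and 0.00464).

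Once the data were in view, differences between related members were also compared within each array, which removes anything that moves all genes of an array alike. There were 8 pairs of members and 4 comparisons, hence 32 exact two-sided permutation tests with Benjamini-Hochberg adjustment over the 32, and 11 of them passed. The Argonaute pairs share genes, so their tests overlap. No pairs of other genes were run, so the count has no background share beside it and is only a description. The values are shifts of a within-array difference, not differences in level between genes. Each is the difference between the shifts of both members on the same arrays, so it is not separate support for their calls.

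In the TNRC6 pair, Tnrc6c shifted against Tnrc6a by 0.93 with anti-miR-22 after glycerol (exact permutation p 0.00175, adjusted 0.0112). In sham kidneys the shift was 0.67 and did not pass (exact permutation p 0.0794, adjusted 0.159). Between the processing nucleases, Drosha shifted against Dicer1 by 0.68 after glycerol with mock (exact permutation, adjusted p 0.0283; 0.0215 without sham mock 1, 0.0705 without sham mock 3 and 0.0617 without sham mock 4). With anti-miR-22 after glycerol it shifted by -0.90 against the mock arrays, without overlap, at an exact permutation p of 0.000583, the smallest that 7 against 7 can give (adjusted 0.00932).

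Among the Argonautes, Ago4 shifted against Ago2 by -1.28 after glycerol with mock, again at the smallest exact permutation p the design allows (0.00126, adjusted 0.0112), and without overlap. Without sham mock 1 that shift was -1.21 (exact permutation, adjusted p 0.0152). With anti-miR-22 after glycerol the same pair shifted by 0.87 against mock (exact permutation, adjusted p 0.0112). The injury shift under anti-miR-22 was -0.60 (exact permutation, adjusted p 0.0367) and failed when any of 9 arrays was left out, with an adjusted p of up to 0.108 without sham anti-miR-22 4, and under a second quantile normalization (-0.51, adjusted p 0.0746).

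Ago2 shifted against Ago1 by 0.91 after glycerol with mock (exact permutation, adjusted p 0.0224; 0.0367 without sham mock 1 and 0.0582 without sham mock 3) and by 0.70 after glycerol with anti-miR-22 (adjusted 0.0135, no overlap). The inhibitor itself shifted that pair by 0.11 after glycerol, which did not pass (exact permutation, adjusted p 0.645), Ago1 and Ago2 both being lower. Ago3 shifted against Ago1 by 0.66 with the inhibitor after glycerol, without overlap (exact permutation, adjusted p 0.00932), and Ago4 against Ago1 by 0.99 (adjusted 0.0152).

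**Figure D3:**
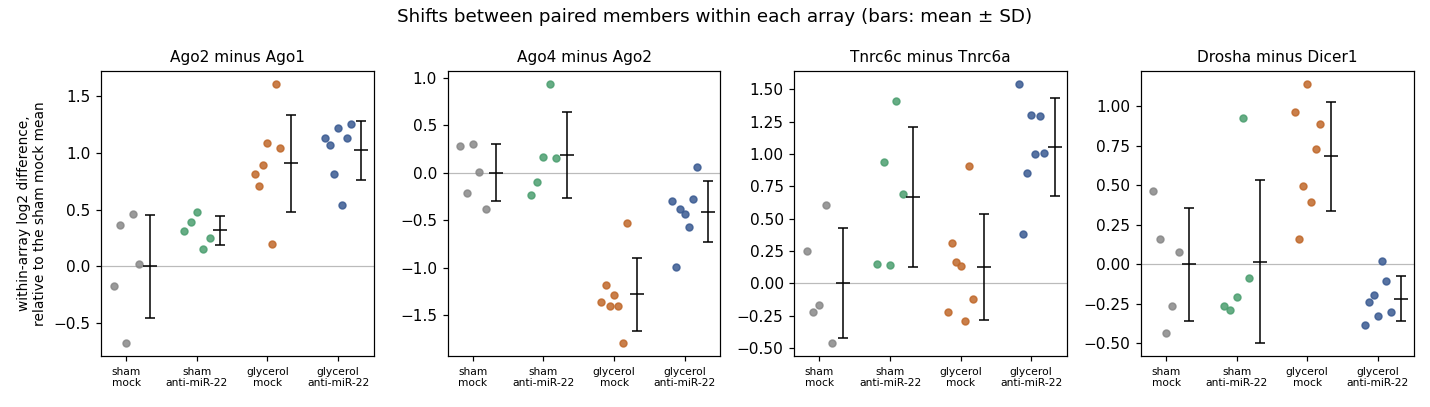
Each panel plots the within-array log2 difference of a pair of members relative to its sham mock mean (y axis) for the 24 arrays by group (x axis), with mean ± SD as bars. Ago4 minus Ago2 and Drosha minus Dicer1 depart from sham in the glycerol mock group (-1.28 and 0.68), and Tnrc6c minus Tnrc6a lies higher by 0.93 with anti-miR-22 than with mock after glycerol.

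Around the core, 8 lists of genes that act before, with or after Argonaute were counted the same way. The counts and shares below are descriptions, and no list was tested against other genes or against another list. The nuclear processing, export and dicing partners were called in 1 direction after glycerol with mock: 8 of 16 were higher and 0 lower with mock, with a median difference of 0.58, and 10 were higher and 1 lower with anti-miR-22. These are 50% and 68.8% called, against 34.4% and 37.4% of all probes. The median over all probes was -0.00085 with mock. Ran, the GTPase that drives nuclear export, rose 3.55-fold with mock (1.83 ± 0.14 SE, limma adjusted p 4.01e-12). The terminal uridylyltransferase Tut1 rose 2.58-fold.

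Of the chaperones that load Argonaute and its cofactors, 13 of 25 were higher and 0 lower after glycerol with mock (median 0.52), and 15 higher and 1 lower with anti-miR-22, or 52% and 64% called against 34.4% and 37.4% of all probes. Ajuba, a LIM protein of P-bodies, rose 7.70-fold with mock (2.94 ± 0.20 SE, limma adjusted p 3.54e-13). Egfr, a kinase that can phosphorylate Ago2, rose 2.44-fold. With the inhibitor this list had 0 of 25 genes higher and 2 lower in sham kidneys, and 1 higher and 6 lower after glycerol, or 8% and 28% called against 7.16% and 19.6% of all probes.

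Ipo8, an importin that carries Argonaute proteins into the nucleus, fell by 1.43 ± 0.17 (SE) with anti-miR-22 in sham kidneys, or 2.70-fold (limma adjusted p 8.15e-07). After glycerol Ipo8 fell by 2.04 ± 0.14 (SE), or 4.12-fold (limma adjusted p 7.66e-12). Mov10, an RNA helicase found with Argonautes, fell by 1.42 ± 0.17 (SE) with the inhibitor after glycerol, or 2.67-fold (limma adjusted p 2.49e-07). Fkbp5, a chaperone partner of Hsp90, was 2.19-fold lower with the inhibitor in sham kidneys.

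Of 18 genes for microRNA tailing, editing and turnover, 3 were higher and 1 lower after glycerol with mock, and 4 higher and 3 lower with anti-miR-22. The share called was 22.2% with mock, below the 34.4% of all probes, and 38.9% with anti-miR-22, against 37.4%. With the inhibitor, 2 were higher and 1 lower in sham kidneys (16.7% called, 7.16% of all probes), and 3 higher and 3 lower after glycerol (33.3%, 19.6% of all probes). Snd1, a nuclease of the silencing complex, fell by 0.82 in sham kidneys (1.77-fold) and by 1.34 after glycerol (2.54-fold, limma adjusted p 4.14e-08). Tsn, a subunit of the nuclease C3PO, rose by 0.85 and 0.81 in the same comparisons.

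Deadenylases and their poly(A)-binding partners, which act downstream of TNRC6, were called in both directions. After glycerol 6 of 20 were higher and 3 lower with mock, and 6 higher and 5 lower with anti-miR-22, or 45% and 55% called against 34.4% and 37.4% of all probes. The inhibitor gave 3 higher and 4 lower in sham kidneys and 2 higher and 6 lower after glycerol, or 35% and 40% called against 7.16% and 19.6%. Cnot1, the scaffold of the CCR4-NOT complex, fell by 1.25 with the inhibitor after glycerol (2.39-fold, limma adjusted p 2.63e-07). The poly(A)-binding protein gene Pabpc4 fell by 1.07 in sham kidneys and by 1.41 after glycerol, whereas Tob2, an adaptor of CCR4-NOT, rose by 0.91 and 1.14. The Tob2 call in sham kidneys was lost when only the groups compared were fitted (limma adjusted p 0.0523).

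Of 22 decapping and 5′ decay genes, 10 were higher and 2 lower after glycerol with mock, 11 and 2 with anti-miR-22, 2 and 1 for the inhibitor in sham kidneys, and 9 and 2 for the inhibitor after glycerol. The shares called were 54.5%, 59.1%, 13.6% and 50%, against 34.4%, 37.4%, 7.16% and 19.6% of all probes. Lsm7, of the ring that binds decaying messages, rose by 0.76 and 1.45 with the inhibitor in sham and glycerol kidneys. Gigyf2, a translational repressor that partners Eif4e2, rose by 1.28 and 1.14.

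The list of other sequence-specific repressors of messenger RNA had 24 measured genes and was broad. It also held regulators of other kinds, such as Elavl1, Igf2bp3, Upf1, Stau1 and Stau2. Of the 24 genes, 11 were higher and 2 lower after glycerol with mock, and 12 and 3 with anti-miR-22. The inhibitor gave 3 higher and 0 lower in sham kidneys, and 7 and 2 after glycerol. In the same order 54.2%, 62.5%, 12.5% and 37.5% were called, against 34.4%, 37.4%, 7.16% and 19.6% of all probes. Pum2, a Pumilio protein, rose 4.48-fold in sham kidneys and 5.14-fold after glycerol (2.36 ± 0.12 SE, limma adjusted p 1.48e-14). Hnrnpd, which binds AU-rich elements, rose 2.66-fold and 4.22-fold.

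Among nuclear processing partners, the inhibitor gave 1 higher and 2 lower in sham kidneys and 3 higher and 3 lower after glycerol, or 18.8% and 37.5% called against 7.16% and 19.6% of all probes. Prkra, the Dicer partner also called PACT, fell by 1.01 after glycerol (2.02-fold, limma adjusted p 2.53e-05). Hnrnpa2b1, a reader of marked primary microRNAs, rose by 1.23 and the helicase Ddx17 by 0.84. The PIWI clade list had 6 measured genes: the germline Argonaute relatives Piwil1 and Piwil2, and also Mael, Tdrd1, Tdrd9 and Ddx4, which are not Argonautes. These genes were called by limma in 0 of these 4 comparisons, with 1 at an unadjusted p below 0.05 after glycerol with mock and 0 in the other 3. All-probe shares were 7.16% to 37.4%.

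Of 16 host genes that carry a microRNA in an intron, 1 was higher and 5 were lower after glycerol with mock (median -0.31), and 0 were higher and 6 lower with anti-miR-22. The share called, 37.5% in both, was close to the 34.4% and 37.4% of all probes. Pank1 fell by 2.23 with mock and fell by 2.40 with anti-miR-22, and Ctdspl differed by -1.75 and -1.85. The inhibitor gave 1 higher and 0 lower in sham kidneys and 2 higher and 0 lower after glycerol, or 6.25% and 12.5% called against 7.16% and 19.6% of all probes. Copz1 rose by 0.48 in sham kidneys and by 0.61 after glycerol, and its call in sham kidneys was lost without sham mock 2, 3 or 4 or sham anti-miR-22 1, 2 or 3 (limma adjusted p 0.0609 to 0.0997).

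**Figure D4:**
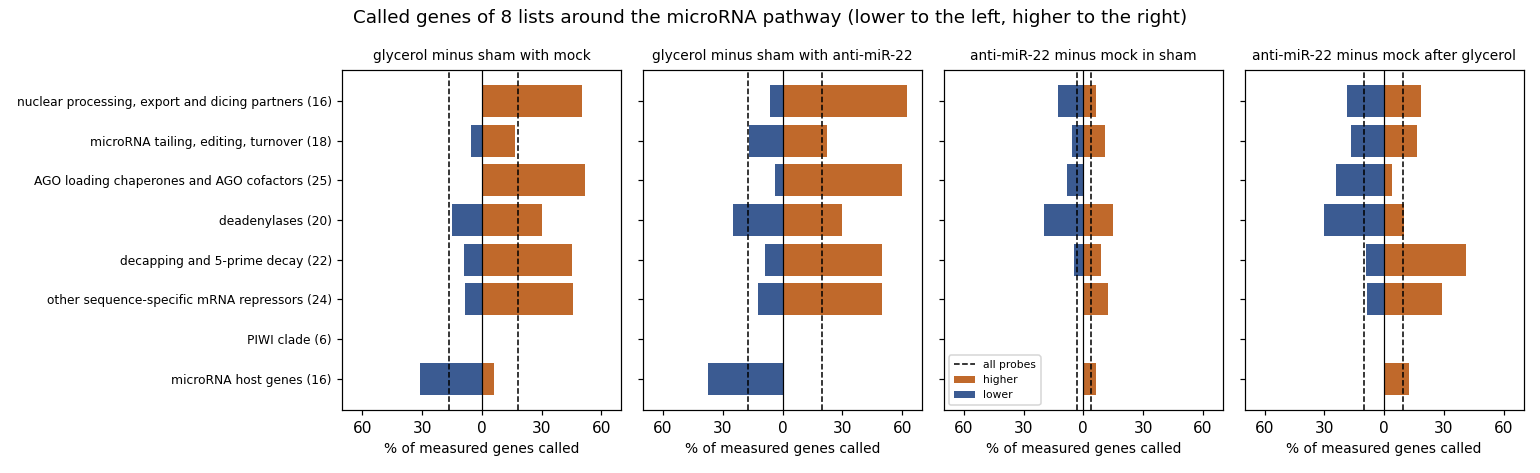
Bars give the percent of each list's measured genes (number in brackets) called higher, to the right, or lower, to the left, in each comparison, and dashed lines give the percent of all probes called in that direction. After glycerol the processing partners and Argonaute cofactors reach 50% and 52% called with mock, all of them higher, while the host genes extend to the left.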

How the data were processed

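The authors deposited a series table of log2 values, 1 per probe and array. The submitters' processing notes name RMA and Partek 6.4 without roles. Settings and array batches: not given in the sources used here. RMA-type values compress differences among dim probes, which touches Ago4 most. The deposited values reached 19.92, and with the settings unknown the fold sizes hold for the deposited scale only. Of 22206 lines, 1 with values on 5 arrays was left out. Of 22205 probes, 19572 had 1 gene symbol and 2633 had none. Limma 3.58.1 (R 4.3.3) fitted 4 group means to 24 arrays, with 6 two-sided contrasts and Benjamini-Hochberg adjustment over all probes. The fitting code was also run on simulated independent normal values, which are simpler than these data and lend the calls no support. The members, lists, markers and pair tests were chosen with earlier results of these data known, and the within-array pair tests were added once the data were in view. From each list at most 2 rises and 2 falls, the largest called, could be named per contrast. Alternatives were other moderation, array weights, 2 rescalings, a filter on dim probes, only the groups compared, a replicate block, and each array left out. The number of arrays limits the precision, and an array gives no read depth.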

Additional observations from a re-analysis of the deposited data

Results flagged for a closer look

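Within groups, 32 sets of member values were examined for an array far from the others, and 5 had a gap larger than Dixon's 95% limit. Chance gives about 1 in 20 such sets. Ago2 was 9.15 on glycerol anti-miR-22 array 5, where the other 6 arrays held 9.66 to 9.90. Ago3 was 8.11 on sham anti-miR-22 array 2, against 7.53 to 7.67 on the other 4. Dicer1 was 7.35 on sham anti-miR-22 array 4, against 8.03 to 8.24. Glycerol mock array 7 stood apart for 2 members, with Ago4 at 5.88 against 4.77 to 5.23 and Tnrc6c at 8.08 against 8.59 to 8.90. Ago2 was called higher after glycerol with anti-miR-22 once glycerol anti-miR-22 5 was left out (0.39, limma adjusted p 0.0421) or once sham anti-miR-22 2 was (0.41, limma adjusted p 0.0472). The effect on Dicer1 is given with its result.

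Stau2, which encodes a protein that binds double-stranded RNA, was the 1 gene of the 8 lists called for the interaction. Of all probes 0.383% were called for it, so this single call is only a description. The difference of the effects was -0.83 ± 0.19 (SE), with a limma adjusted p of 0.0448. It was 0.0603 with a replicate block, and 0.0226 to 0.0878 over the 24 fits that each left out 1 array, in 19 of which the call was lost.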

How the results depend on the processing

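Tnrc6c in both inhibitor comparisons, Ago1, Ago2 and Drosha with the inhibitor after glycerol, and Ago2 and Drosha after glycerol with mock kept their direction and call under every alternative run. The count of members called after glycerol with anti-miR-22 went from 2 to 1 under a second quantile normalization, centring on array medians, and a fit of only the groups compared, and was 0 to 2 with 1 array left out. With 1 array left out the other counts were 2 to 3 after glycerol with mock, 1 to 2 for the inhibitor in sham kidneys, 4 to 5 after glycerol. Dicer1 with the inhibitor after glycerol passed under a second quantile normalization (limma adjusted p 0.0452) and without dim probes (0.0461). Dicer1 after glycerol with anti-miR-22 did not pass under that normalization (0.0853) or with only the groups compared (0.063). The cause was not tested. The interaction's 85 called probes became 173 with trend and robust moderation, 141 with array weights, 136 with a second quantile normalization, 140 without dim probes, and 28 to 138 with 1 array left out. Of the lists, Argonaute cofactors lower with the inhibitor in sham kidneys went from 2 to 5 with array weights or only the groups compared, deadenylases lower after glycerol with mock from 3 to 1 with centring, and tailing genes lower after glycerol with anti-miR-22 from 3 to 1 with centring.

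Differences near 0 changed sign. Under array weights these were Dicer1 (0.0086) and Drosha (-0.015) with the inhibitor in sham kidneys and the Tnrc6a difference of effects (-0.0020). Under a second quantile normalization they were Dicer1 after glycerol with mock (-0.069), Drosha in sham kidneys (-0.011), and the pairs Ago3 and Ago2 (0.013) and Drosha and Dicer1 (-0.0029) there. Centring gave Drosha -0.0023. Leaving out 1 array moved these across 0: after glycerol with mock, Ago3 (-0.029 to 0.18), Dicer1 (-0.076 to 0.069) and Tnrc6c against Tnrc6a (-0.0038 to 0.28); after glycerol with anti-miR-22, Ago4 against Ago1 (-0.0092 to 0.26). For the inhibitor in sham kidneys they were Ago4 (-0.081 to 0.13), Dicer1 (-0.094 to 0.14), Drosha (-0.075 to 0.076), Ago3 against Ago2 (-0.084 to 0.046), Ago4 against Ago2 (-0.0037 to 0.29) and Drosha against Dicer1 (-0.21 to 0.13). After glycerol they were Ago3 (-0.15 to 0.038) and Ago2 against Ago1 (-0.0039 to 0.23), and for the difference of effects Ago3 (-0.0059 to 0.22) and Tnrc6a (-0.089 to 0.18).

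The replicate numbers were not taken to pair the arrays, since 1 of 22 same-number correlations of deviations (-0.108 to 0.102) was above 0.1. After glycerol, anti-miR-22 against mock, 6 of the 7 were 0.049 to 0.102 and 6 of 14 arrays were closest to their own number, a hint from the data and not the design. In the other comparisons 0 to 2 of 10 were. With the replicate block, after glycerol with anti-miR-22, Ago1 was -0.34 (limma adjusted p 0.0719) and Ago4 -0.44 (0.0251), and Dicer1 with the inhibitor after glycerol was 0.42 (0.0389). A next-highest probe was not run, since each member had 1 probe.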

Other observations

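The genes whose log2 values most resembled those of Tnrc6c over the 24 arrays were Snx13 (Pearson r 0.923), Tbp (0.918) and Mdh2 (0.899). For Ago1 they were Baz1b (0.869), Phospho2 (0.865) and Rbm47 (0.86), and for Ago2 they were Ctr9 (0.881), 4930453N24Rik (0.862) and Ctsc (0.858). The arrays share the 4 groups, so these values largely describe likeness of group means. After the group means were subtracted, the closest genes were Gabra2 (0.771) for Tnrc6c, Xpo4 (0.787) for Ago1 and Crispld2 (0.833) for Ago2, each the highest of 19572 probes. Within groups the 28 pairs of members had correlations from -0.321 to 0.646, with a median of 0.236, and 20 were above 0. The highest was between Dicer1 and Tnrc6a and the lowest between Drosha and Tnrc6c. All these values share arrays and their normalization.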
